A study of Homo sapiens with 2 samples.

Results

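The genes of the early secretory pathway, by which proteins enter the endoplasmic reticulum (ER) and are carried between ER and Golgi, were examined in MKN45P, a highly metastatic gastric cancer cell line, and in MKN45, the parental line. The members were 48 listed genes, taken as the probesets whose platform annotation names exactly 1 gene symbol from that list; 47 of them had such probesets, out of 18923 symbols on the array. They were sorted by role into 11 genes of the translocon and its associated membrane proteins, 5 signal peptidase subunits, 8 genes of the signal recognition particle and its receptor, 12 of the COPII coat and ER exit, 7 of the COPI coat, and 5 cargo and retrieval receptors. Total RNA of lysed cells was measured on an exon array, which reads a gene at several places along its length through small groups of probes called probesets. There was 1 array of MKN45P and 1 of MKN45, both of cells grown in RPMI medium with serum and harvested with trypsin, and neither line carried a stated genetic alteration or drug treatment. Neither line has a replicate, so the variation between cultures is unknown and no difference was tested. The spread beside a value is over the probesets of that gene, and the number of arrays limits the precision.

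As background, ribosomes that make a secreted or membrane protein are recognised by the signal recognition particle (SRP), docked at the SRP receptor and fed into the SEC61 channel, where signal peptidase removes the signal peptide. Folded cargo leaves the ER in vesicles coated with COPII, which the GTPase SAR1 assembles, while vesicles coated with COPI return escaped ER proteins and receptors from the Golgi. In secretory epithelia such as that of the stomach this machinery handles mucins, enzymes and surface receptors, and several of its genes are known targets of the unfolded protein response.

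All values are in log2 units of signal, so a difference of 1 is a 2-fold change, and a gene's difference is MKN45P minus MKN45, taken for each probeset and then as the median. Measured genes had 4 probesets or more and a median level of 1.92 or higher, which is the middle value of the whole array; 43 of the 48 members and 13130 genes in all were measured. Signal near the low end of the scale is compressed, so differences of dim genes understate the difference in RNA. An array of bulk RNA also cannot tell more RNA per cell from a larger share of cells that hold the RNA. As a check of the labelled cell type, which cannot tell the arrays of these epithelial lines apart, 6 epithelial markers were read. CDH1 (10.74 in MKN45P and 10.26 in MKN45), EPCAM (7.43 in MKN45P and 6.39 in MKN45), KRT18 (5.78 in MKN45P and 5.63 in MKN45) and CLDN4 (5.55 in MKN45P and 5.30 in MKN45) had signal on both arrays. KRT19, read by 2 probesets, was at 5.60 in MKN45P and 6.36 in MKN45, and KRT8 was dim, at 3.13 in MKN45P and 3.31 in MKN45. The 3 keratins differed by -0.76 (KRT19), -0.21 (KRT8) and -0.08 (KRT18). Levels of 6 fibroblast markers lay between 1.69 and 2.86 in MKN45P and between 1.82 and 2.62 in MKN45, those of 6 endothelial markers between 1.74 and 2.77 in MKN45P and between 1.75 and 3.40 in MKN45, and those of 5 immune markers between 1.65 and 2.47 in MKN45P and between 1.66 and 2.69 in MKN45. The defining markers of these cell types were thus near the low end on both arrays. Among 5 markers of plasma cells, which are professional secretory cells, SDC1, also an epithelial gene, had levels of 4.64 in MKN45P and 5.15 in MKN45, and the other markers stayed at or below 2.24 in MKN45P and 3.05 in MKN45. Levels of 4 mesothelial markers lay between 4.18 and 9.49 in MKN45P and between 3.996 and 8.70 in MKN45. These markers differed by a median of -0.12, from 0.48 for CALB2 to -1.06 for UPK3B, and their part in the results was not tested.

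Nearly all measured members had more signal in MKN45P. The members were listed with earlier results of these data known. Their shares, here and below, therefore describe the list and cannot show how the whole pathway differs. The difference was above 0 in 41 of 43 members (95.3%), against 54.9% of all measured genes. In 10 members (23.3%) MKN45P was at least 2-fold higher, against 4.58% of all measured genes. That count depended on the summary: it was 21 with the difference between median levels (9.62% of all genes), 15 over probesets with levels from 2.77 (11.4%) and 6 of 34 members with at least 10 probesets (4.83%). The 1.5-fold mark was passed by 22 members (51.2%), against 12.7%. No member was at least 2-fold or 1.5-fold lower, while 1.20% and 3.87% of all measured genes were. The median difference was 0.60 (interquartile range over members 0.36 to 0.92), beside 0.03 (-0.13 to 0.30) over all measured genes. The members past 2-fold were MCFD2, SSR3, SEC22B, SRP54, COPB2, SEC11C, SAR1B, SSR1, SRP72 and SRPR, and at least 1 came from each of the 6 roles.

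**Figure D1:**
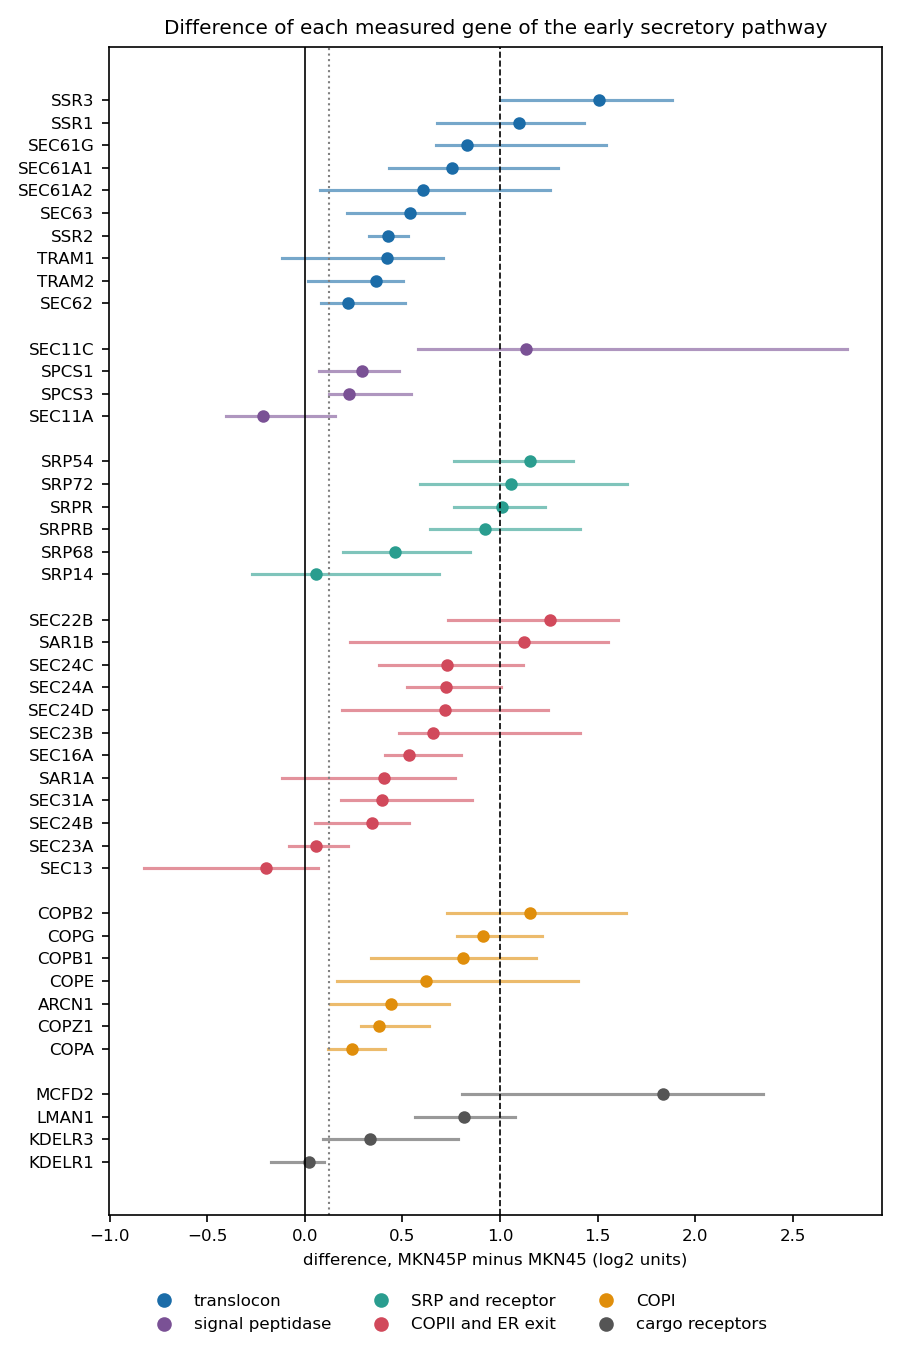
Difference of each of the 43 measured genes (x axis, MKN45P minus MKN45, log2 units), by role and in order of size; points are medians over probesets, bars the interquartile range over probesets, the dashed line 2-fold, and the dotted line the median of 0.12 over measured genes in the brighter range, with levels from 2.77. SEC11A and SEC13 alone lie left of 0.

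These genes were bright, and bright genes lay higher in MKN45P on these arrays, so the members were also read against genes of like signal. The median level of the measured members was 6.15, beside 3.20 for all measured genes. The 75th percentile of all probesets was 2.77, and 8081 measured genes had such a level or a higher one. Of these, 62.8% had a difference above 0, 7.25% passed 2-fold upward and 19.0% passed 1.5-fold upward, with a median of 0.12. Of the 41 members in that range, 40 had a difference above 0, 10 passed 2-fold and 22 passed 1.5-fold, with a median of 0.62. Among genes with levels from 4.62 upward, 7 of 32 members were at least 2-fold higher, against 9.84% of genes, and the medians were 0.60 for members and 0.21 for all genes there. The difference was also visible in single probesets: 685 of the 809 probesets of measured members (84.7%) were higher in MKN45P, beside 54.7% of the probesets of all measured genes. Member probesets below the 75th percentile had a median difference of 0.11, those between it and a level of 6 a median of 0.75, those from 6 to 9 a median of 0.73, and those at 9 or above a median of 0.48. The same strata over all measured genes had medians of 0.02, 0.09, 0.19 and 0.09. The members thus lay closest to all genes among the dimmest probesets, where the scale is compressed.

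**Figure D2:**
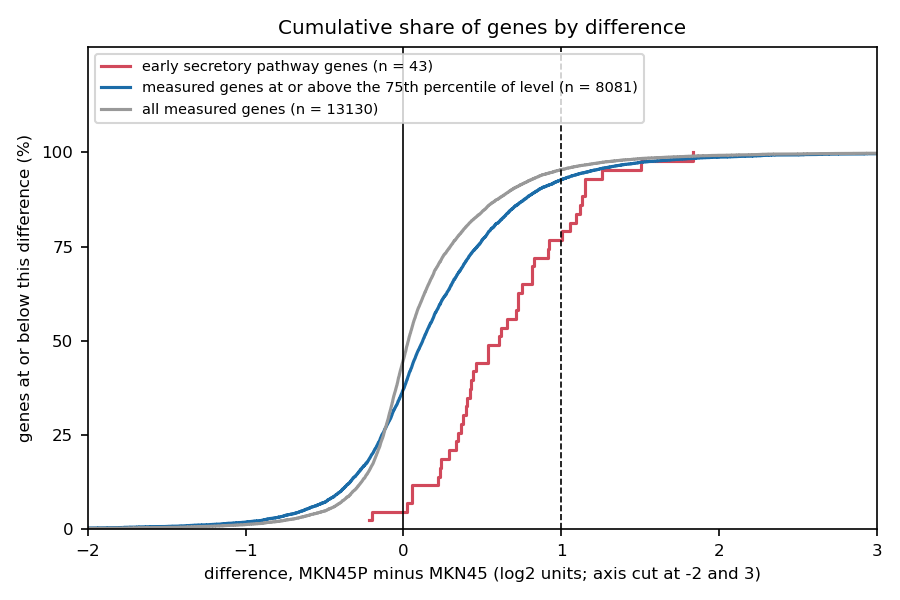
Cumulative share of genes (y axis, percent) at or below each difference (x axis, MKN45P minus MKN45, log2 units) for the 43 measured early secretory genes, the 8081 measured genes with levels from 2.77 and all 13130 measured genes; the dashed line marks 2-fold. The curve of the members lies to the right of the other curves from 0 to past 2-fold, with a median of 0.60 against 0.12 and 0.03.

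Since nearly all members lay higher in MKN45P, their promoters were searched for response elements of the unfolded protein response and related signals. RefSeq windows of 300 bases (GRCh38.p14), 250 before and 50 from each annotated start, were held for 43 members in 59 windows; SPCS1, SEC24D, SRPR, KDELR2 and TRAM1 had none there. The UPRE core, TGACGTGG, a motif bound by XBP1 and ATF6, occurred on either strand in 10 of 43 members (23.3%), against 0.927% of 27305 genes in the table, or in 18.6% of the members' windows against 0.729% of 35116 windows. Among genes measured here with a window, 9 of 39 members (23.1%) and 1.29% of 10542 genes held it. The genes were SSR3, COPB2, COPB1, SEC24A, SEC16A, KDELR3, COPA, SEC62, SEC23A and SRP19. The ERSE, CCAAT and CCACG with 9 bases between, was in no member window (0.0769% of all windows). The ERSE-II, ATTGG and CCACG with any base between, was in none either (0.0541%), and nor was the CRE, TGACGTCA (1.85%), which shares 6 letters with the UPRE core. The C/EBP-ATF site, TGATGNAA, bound by ATF4 heterodimers, was in MCFD2 and SRPRB, 4.65% of members against 4.46% of genes. A match is a description of the letters and not a bound site, and the absence of a match says only that those letters are not in these windows. Members with the UPRE core had a median difference of 0.54 (0.06 to 1.51, n = 9) and those without it 0.61 (-0.22 to 1.83, n = 30). These ranges overlapped widely, and the part of the motif in the differences was not tested. Over all measured genes the medians were 0.09 with the core (n = 136) and 0.04 without it.

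The promoters below belong to the 4 members with the UPRE core and the largest differences, a choice made after the matches were seen. They are written 5′ to 3′ on the strand of the gene, with the UPRE core or its reverse complement, CCACGTCA, in capitals. The windows are chr3:156554076-156554375 (minus strand) for SSR3, the farthest downstream of its 3 annotated starts, chr3:139389598-139389897 (minus) for COPB2, 1 of its overlapping windows, chr11:14499762-14500061 (minus) for COPB1 and chr5:134648535-134648834 (plus) for SEC24A.
SSR3: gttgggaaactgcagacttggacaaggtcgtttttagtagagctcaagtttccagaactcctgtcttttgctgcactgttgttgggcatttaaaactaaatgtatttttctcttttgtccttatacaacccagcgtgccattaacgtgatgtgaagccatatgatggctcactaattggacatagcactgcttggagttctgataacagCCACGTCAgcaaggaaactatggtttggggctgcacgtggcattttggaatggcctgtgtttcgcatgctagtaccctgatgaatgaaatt
COPB2: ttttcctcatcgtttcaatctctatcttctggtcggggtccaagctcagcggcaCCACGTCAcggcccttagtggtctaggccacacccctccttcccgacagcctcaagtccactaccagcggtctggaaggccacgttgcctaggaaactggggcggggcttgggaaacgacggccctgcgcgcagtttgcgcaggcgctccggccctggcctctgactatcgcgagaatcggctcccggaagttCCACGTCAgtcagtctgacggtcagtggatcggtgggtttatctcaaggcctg
COPB1: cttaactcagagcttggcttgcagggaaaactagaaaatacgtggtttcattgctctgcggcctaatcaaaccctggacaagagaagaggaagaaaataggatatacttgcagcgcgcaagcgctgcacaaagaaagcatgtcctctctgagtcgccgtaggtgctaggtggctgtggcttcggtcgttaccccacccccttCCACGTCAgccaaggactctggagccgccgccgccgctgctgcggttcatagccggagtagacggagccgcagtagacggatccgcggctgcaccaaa
SEC24A: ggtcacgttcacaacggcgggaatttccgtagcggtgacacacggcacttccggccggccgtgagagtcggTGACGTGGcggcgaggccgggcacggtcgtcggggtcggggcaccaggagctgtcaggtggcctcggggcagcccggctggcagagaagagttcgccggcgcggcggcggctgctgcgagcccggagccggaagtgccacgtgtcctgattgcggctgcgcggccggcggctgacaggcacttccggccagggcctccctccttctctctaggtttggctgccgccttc
Counted from the start site, with negative positions before it, the motif lay at -196 and -3 in this window of COPB2, at -48 in COPB1, at -41 in SSR3 and at -179 in SEC24A. The UPRE matches of the other members lay between -112, in SRP19, and 16, in SEC16A.

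Signal recognition had a median difference of 0.97 (interquartile range 0.58 to 1.04). At least 2-fold higher in MKN45P were 3 of 6 measured genes, and all 6 were above 0. For this and the roles below, the shares over all measured genes were 4.58% at least 2-fold higher and 54.9% above 0. The signal recognition median was the highest of the 6 roles, except with the difference between median levels. There COPI was at 1.13 and signal recognition at 1.08. Without the filter, which adds SRP9 and SRP19, the median of signal recognition was 0.69. SRP54, the GTPase that binds the signal peptide, had median levels of 5.59 in MKN45P and 3.81 in MKN45. Its difference was 1.15 (0.77 to 1.37 over probesets), and all 18 of its probesets were higher, from 0.23 to 3.16. SRP72, a protein of the particle that binds its RNA together with SRP68, had levels of 7.30 in MKN45P and 5.28 in MKN45, with a difference of 1.06 (0.59 to 1.65; 11 of 12 probesets higher). Its partner SRP68 was at 8.27 in MKN45P and 7.93 in MKN45, a smaller difference of 0.46 (0.20 to 0.85; 18 of 19 higher). Both subunits of the receptor were higher. SRPR, now named SRPRA, the subunit that meets SRP, was at 10.24 in MKN45P and 9.25 in MKN45, with a difference of 1.01 (0.76 to 1.23), and all 19 probesets were higher. SRPRB, its membrane anchor, was at 7.19 in MKN45P and 6.02 in MKN45, a difference of 0.93 (0.64 to 1.41; 9 of 10 higher). SRP14, which with SRP9 pauses translation, was at 6.76 in MKN45P and 6.11 in MKN45. It differed by 0.06 (-0.27 to 0.68; 4 of 7 higher), and its sign turned to -0.10 with quantile normalization and -0.02 with loess. SRP9 was below the level filter at 1.71 in MKN45P and 1.67 in MKN45. SRP19, which helps SRP54 onto the particle, had 3 probesets that disagreed, from -1.88 to 2.92 with a median of -0.25, and was not measured.

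The measured translocon genes were higher in MKN45P, most so SSR3 and SSR1 of the TRAP complex. All 10 measured genes had a difference above 0, 2 were at least 2-fold higher and the median was 0.57 (0.42 to 0.81). SSR3, the gamma subunit of the TRAP complex that assists the entry of some signal peptides, had levels of 6.91 in MKN45P and 4.61 in MKN45, with a difference of 1.51 (1.00 to 1.88). Of its 7 probesets 6 were higher, and the last, at 2.38 in MKN45P and 2.84 in MKN45, was near the low end. SSR1, the alpha subunit, was at 7.68 in MKN45P and 5.95 in MKN45, a difference of 1.09 (0.68 to 1.43; 19 of 21 probesets higher). The other TRAP subunits were closer: SSR2 differed by 0.43 (0.33 to 0.53), from levels of 7.02 in MKN45P and 6.51 in MKN45, and SSR4, which is not among the 48 listed genes, by -0.03. The 4 subunits thus differed unequally on these arrays.

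Within the SEC61 channel, SEC61A1, the pore subunit, had levels of 9.24 in MKN45P and 7.42 in MKN45. Its median probeset difference of 0.75 (0.43 to 1.30; 17 of 21 higher) was well below the 1.82 between those levels, so its size depends on the summary used. SEC61G, the small gamma subunit, differed by 0.83 (0.67 to 1.54; 5 of 6 higher), at 4.78 in MKN45P and 3.56 in MKN45. SEC61A2, a paralog of the pore subunit, differed by 0.60 (0.08 to 1.26), at 3.26 in MKN45P and 2.23 in MKN45, the MKN45 level being under 2.77. SEC61B was read by 1 probeset, at 6.62 in MKN45P and 7.04 in MKN45, and was not measured. SEC63, a partner of the channel that brings in the chaperone HSPA5, differed by 0.54 (0.22 to 0.81), and SEC62, its companion, by 0.22 (0.08 to 0.51), from low levels of 2.96 in MKN45P and 2.45 in MKN45. The channel-adjacent proteins TRAM1 and TRAM2 had similar differences of 0.42 (-0.12 to 0.71; 12 of 18 higher) and 0.37 (0.02 to 0.50; 19 of 24 higher). TRAM2 was at 6.02 in MKN45P and 5.41 in MKN45.

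**Figure D3:**
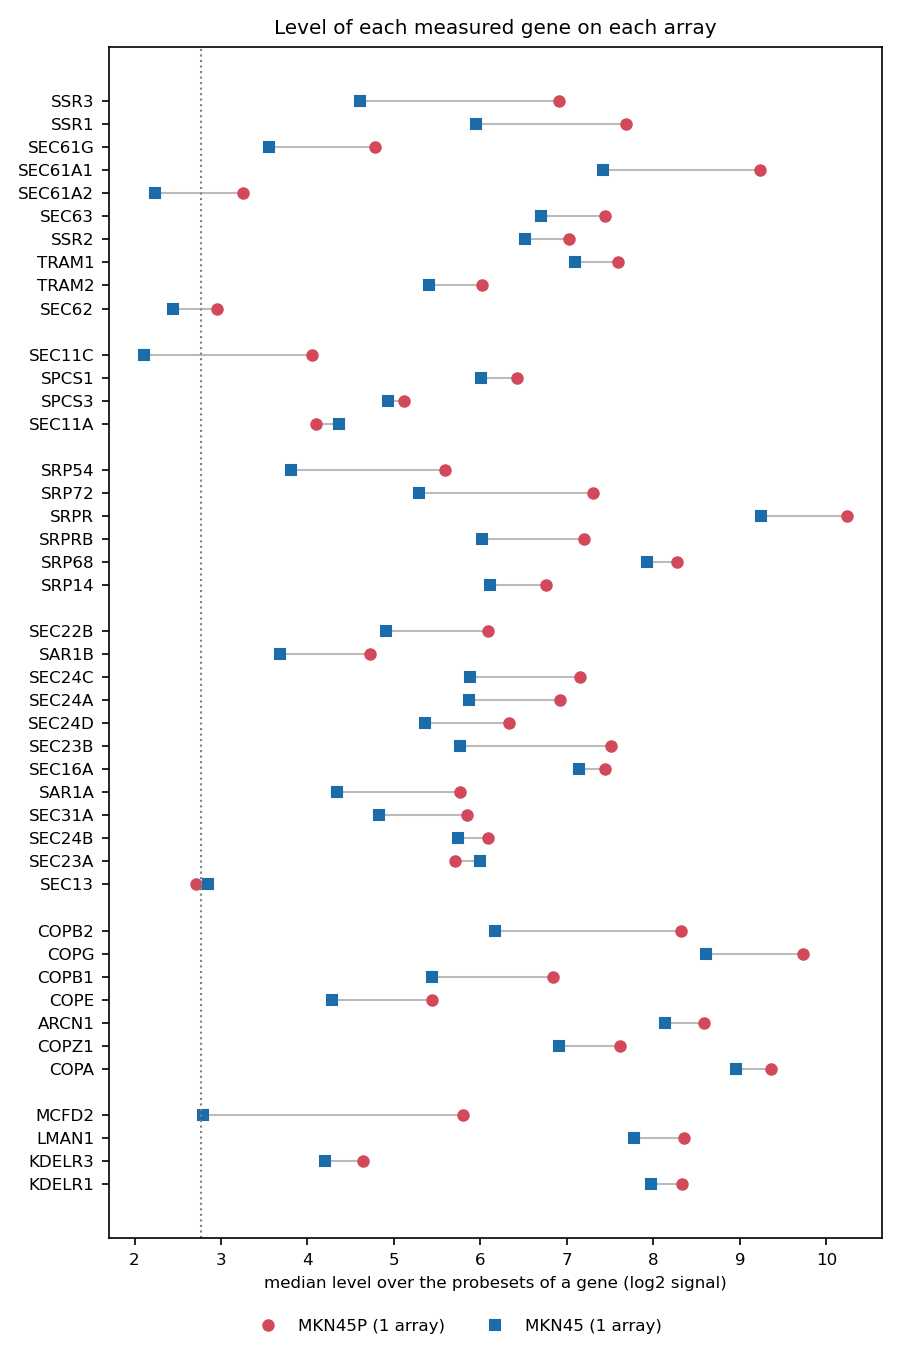
Median level over the probesets of each measured gene (x axis, log2 signal) in MKN45P (circles) and MKN45 (squares), 1 array each; the dotted line is the 75th percentile of all probesets, 2.77. Levels are to be read within a row; the MKN45P circle lies right of the MKN45 square in 40 of 43 rows, the exceptions being SEC11A, SEC13 and SEC23A.

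Among the signal peptidase genes only SEC11C passed 2-fold. SEC11C, a catalytic subunit, had levels of 4.05 in MKN45P and 2.11 in MKN45, with a difference of 1.13 over a wide range (0.58 to 2.78; 8 of 9 probesets higher). Over its 5 probesets with levels from 2.77 the difference was 2.78. SEC11A, the other catalytic subunit, differed by -0.22 (-0.40 to 0.15; 8 of 12 lower), at 4.10 in MKN45P and 4.37 in MKN45. The interquartile ranges of the catalytic paralogs did not overlap. The accessory subunits were closer between the lines. SPCS1 was at 6.43 in MKN45P and 6.01 in MKN45, a difference of 0.29 (0.07 to 0.48; 7 of 9 higher). SPCS3 was at 5.12 in MKN45P and 4.93 in MKN45, a difference of 0.23 (0.12 to 0.54), with all 8 probesets higher. SPCS2 had 2 probesets, with a median of 0.22, and was not measured. The median of the 4 measured genes was 0.26, the lowest of the 6 roles.

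In the COPII group 11 of 12 genes were higher in MKN45P, 2 of them at least 2-fold, with a median of 0.60 (0.38 to 0.73). SAR1B, a GTPase that starts the coat, had levels of 4.72 in MKN45P and 3.68 in MKN45, with a difference of 1.12 (0.23 to 1.55; 11 of 13 probesets higher). SAR1A, its close paralog, differed by 0.41 (-0.11 to 0.77). Its first 4 probesets in order of number had 6.44, 5.77, 8.60 and 3.77 in MKN45P and 5.82, 3.03, 6.01 and 3.001 in MKN45, while the next pair had 9.36 and 8.22 in MKN45P and 9.66 and 8.51 in MKN45. The last 3 probesets differed by -0.11, 0.05 and 0.41, so the higher values of SAR1A in MKN45P lay mainly in its first 4 probesets and the rest of the gene was mixed. SEC22B, a SNARE that rides COPII vesicles, had the largest difference of the group, 1.26 (0.73 to 1.61). Its 5 probesets read 2.21, 5.18, 6.08, 7.18 and 7.77 in MKN45P and 1.90, 3.92, 5.35, 4.91 and 6.17 in MKN45, every one higher in MKN45P.

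The inner coat showed unequal paralogs. SEC23B, which with SEC24 forms the cargo-binding layer, had levels of 7.51 in MKN45P and 5.76 in MKN45, with a difference of 0.66 (0.48 to 1.41; 25 of 28 probesets higher). SEC23A, its paralog, differed by 0.06 (-0.08 to 0.22; 15 of 25 higher), at 5.70 in MKN45P and 5.999 in MKN45, and the difference between its median levels was -0.30. The interquartile ranges of the SEC23 paralogs did not overlap. Of the 4 cargo-selecting SEC24 genes, SEC24C (0.73, 0.38 to 1.12; 36 of 39 higher), SEC24A (0.72, 0.52 to 1.00; 31 of 32 higher) and SEC24D (0.72, 0.19 to 1.25; 32 of 37 higher) had nearly equal differences, with levels of 7.15, 6.92 and 6.33 in MKN45P and 5.88, 5.87 and 5.35 in MKN45. SEC24B was smaller at 0.34 (0.05 to 0.53; 23 of 29 higher). Their ranges overlapped in every pairing. Across the 12 paralog pairs among the members, the ranges were apart in 2, those of SEC11 and SEC23. Many of these pairs lie within the SEC24 family, and no share over other gene pairs was taken. The ranges are over probesets of 1 array per line, so ranges that lie apart are a description and not a test.

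SEC16A, the scaffold of ER exit sites, differed by 0.54 (0.41 to 0.80; 34 of 36 probesets higher), at 7.44 in MKN45P and 7.14 in MKN45. The outer coat genes went different ways. SEC31A differed by 0.40 (0.18 to 0.85; 34 of 41 higher), at 5.84 in MKN45P and 4.82 in MKN45. SEC13, its partner in the outer cage, differed by -0.20 (-0.82 to 0.07; 14 of 20 lower), at 2.72 in MKN45P and 2.85 in MKN45. Most SEC13 probesets were dim; over its 9 probesets with levels from 2.77 the difference was -1.004, just past 2-fold lower.

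All 7 COPI genes were higher in MKN45P, with 1 past 2-fold and a median of 0.62 (0.41 to 0.86). COPB2, the beta-prime subunit of the outer layer of the coat, had levels of 8.32 in MKN45P and 6.17 in MKN45, with a difference of 1.15 (0.73 to 1.64), and all 25 of its probesets were higher, from 0.03 to 2.91. COPG, now named COPG1, the gamma subunit of the inner layer, was also higher at all 26 probesets, with a difference of 0.91 (0.78 to 1.21) and levels of 9.73 in MKN45P and 8.60 in MKN45. COPB1, the beta subunit, differed by 0.81 (0.34 to 1.18; 23 of 25 higher), at 6.84 in MKN45P and 5.44 in MKN45. COPE, the epsilon subunit, differed by 0.62 (0.16 to 1.399; 16 of 19 higher), at 5.44 in MKN45P and 4.28 in MKN45. The delta subunit ARCN1 (0.44, 0.13 to 0.74), the zeta subunit COPZ1 (0.38, 0.29 to 0.64) and the alpha subunit COPA (0.24, 0.12 to 0.41) were less than 1.5-fold higher. COPZ1 was at 7.61 in MKN45P and 6.91 in MKN45. COPA was bright on both arrays, at 9.36 in MKN45P and 8.96 in MKN45, and 36 of its 42 probesets were higher, so its difference was small but shared by most of the gene.

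By the median over probesets, the cargo receptors included the largest difference of the 43 measured members and the smallest above 0. MCFD2, the calcium-binding partner of LMAN1 in carrying coagulation factors and other glycoproteins out of the ER, read 2.26, 9.62, 4.70, 6.89, 3.18 and 7.62 at its 6 probesets in MKN45P and 1.80, 7.87, 2.78, 2.81, 2.69 and 5.13 in MKN45. Every probeset was higher in MKN45P, and the difference was 1.83 (0.80 to 2.35), a 3.57-fold change. LMAN1, the lectin of that complex, was higher at all 14 probesets, with a difference of 0.82 (0.57 to 1.08) and levels of 8.36 in MKN45P and 7.77 in MKN45. The measured KDEL receptors, which retrieve ER chaperones from the Golgi, were less than 1.5-fold apart by the median over all their probesets. KDELR3 differed by 0.33 (0.09 to 0.79; 9 of 12 higher), at 4.65 in MKN45P and 4.21 in MKN45. KDELR1 differed by 0.02 (-0.17 to 0.10; 6 of 11 higher), at 8.33 in MKN45P and 7.97 in MKN45, and its sign turned to -0.05 with quantile normalization, -0.12 with loess and -0.02 with the mean of its probesets. KDELR2 had no probeset with its symbol alone and was not analysed here.

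**Figure D4:**
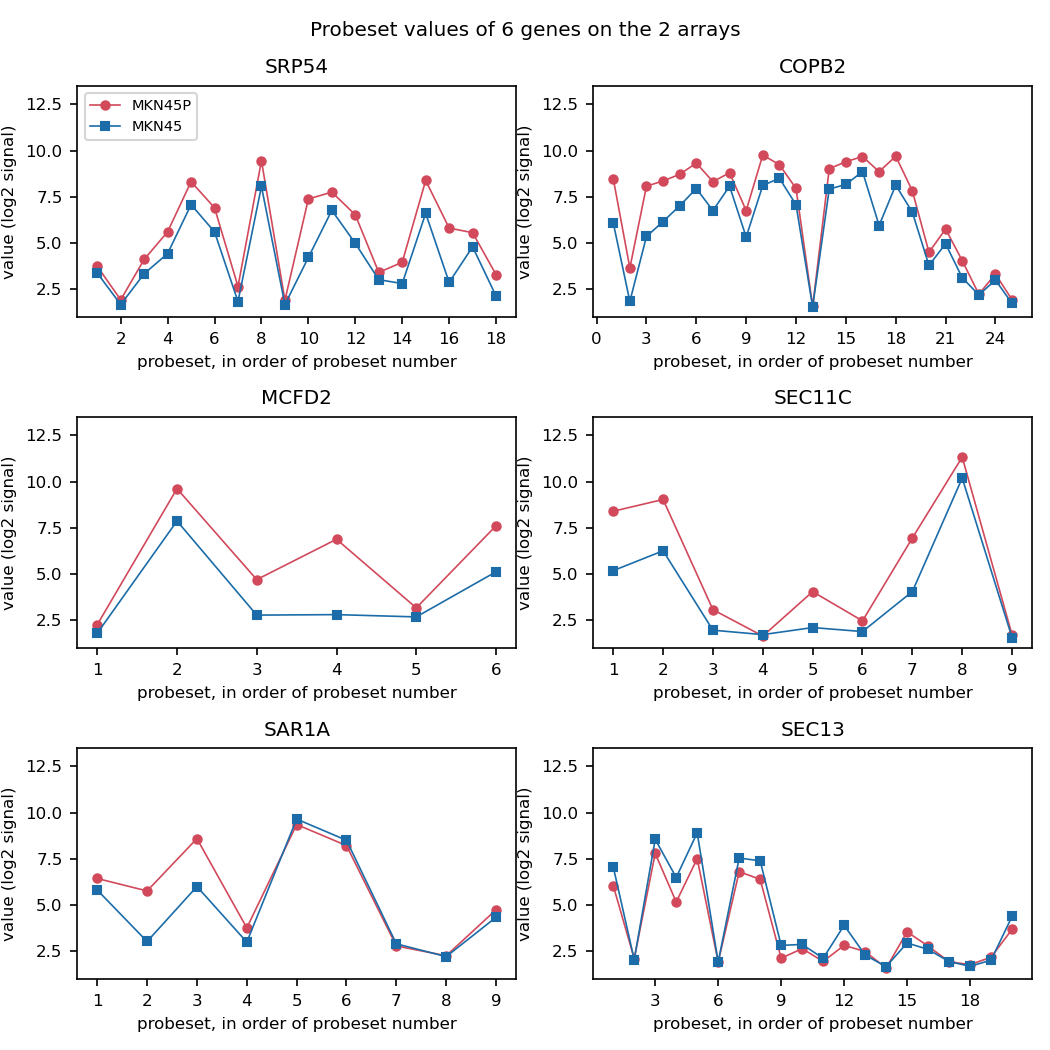
Values (y axis, log2 signal) of each probeset of SRP54, COPB2, MCFD2, SEC11C, SAR1A and SEC13 in MKN45P (circles) and MKN45 (squares), in order of probeset number (x axis). The MKN45P line lies above the MKN45 line at every probeset of SRP54, COPB2 and MCFD2, over the first 4 probesets of SAR1A, and below it in 8 of the 9 SEC13 probesets with levels from 2.77.

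Single probesets departed from their gene in 10 members. The measure was the probeset's difference minus that of its gene, for probesets with levels from 2.77, and a departure of at least 2 was called large. Of 667 such probesets in the 43 measured members, 10 were relatively higher in MKN45P and 1 relatively lower, beside 1.08% higher and 0.609% lower over all measured genes. By gene, 10 of 43 members held a large probeset, against 11.9% of measured genes, but members had more probesets (median 18 against 15) and more signal, and they were not matched on either. The relatively higher probesets lay in SEC24C (2.69), COPB1 (2.38), SAR1A (2.33 and 2.19), SEC61A1 (2.29), MCFD2 (2.24), SRP72 (2.14), SRPR (2.12), SEC11C (2.08) and SRP54 (2.01). In SEC24C the probeset read 6.66 in MKN45P and 3.24 in MKN45, within a gene whose difference was 0.73. The relatively lower probeset was in TRAM1 (-2.02), at 6.41 in MKN45P and 8.01 in MKN45. SAR1A alone had 2 large probesets, and they were neighbours in number.

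Genes near the members had smaller differences in the median. The measured members lay on 19 chromosomes in the RefSeq table: 8 members on chromosome 3 had a median of 0.83 against 0.04 for the 729 genes there, and 5 on chromosome 4 had 0.40 against 0.06. For each of the 10 members past 2-fold, the 5 nearest measured genes on each side had a median between -0.01, around COPB2, and 0.58, around SSR3. The neighbours of MCFD2 had a median of 0.54, beside 0.13 for the genes of chromosome 2, and those of the 7 other members a median between 0.02 and 0.14. Other members were not left out of the neighbours: the highest was LMAN1 (0.82) around SEC11C and SEC24A (0.72) around SAR1B. Of 10 neighbours each, 1 was at least 2-fold higher around SSR3, SRP54 and COPB2, and 0 around the others.

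Other genes of the early secretory pathway, from a wider list of 109 drawn up by role, also lay mostly higher. Of 95 measured, 80 (84.2%) had a difference above 0, with a median of 0.34 (0.11 to 0.58). Above 0 were 54.9% of all measured genes, 62.8% of those with levels from 2.77 and 67.6% of those from 4.62. In the wider list 9 passed 2-fold upward (9.47%) and 0 passed it downward, where 1.20% of all measured genes did. Over all measured genes 4.58% passed 2-fold upward, over those with levels from 2.77 it was 7.25% and over those with levels from 4.62 it was 9.84%. At that cut the share in the wider list was thus near that of bright genes, though the list was not matched on level. The 1.5-fold mark was passed upward by 24 (25.3%), against 12.7% of all measured genes and 19.0% of those with levels from 2.77. In the wider COPII and ER exit list, 4 of 28 were at least 2-fold higher: PREB, the exchange factor that loads SAR1 with GTP (1.84, 0.10 to 2.63), ERGIC2 (1.51), the cargo receptor CNIH4 (1.404) and the vesicle tether USO1 (1.25), with a list median of 0.49. Among 10 other COPI and ARF genes, the zeta paralog COPZ2 differed by 2.31 over a wide range (0.50 to 4.39), at 6.19 in MKN45P and 2.80 in MKN45, and ARFGAP3, which triggers uncoating, by 1.66 (0.09 to 3.02), with a list median of 0.46. Of 19 SNAREs and tethers, STX5 (1.49) and GOSR2 (1.20), which pair with SEC22B at the Golgi, were past 2-fold, with a median of 0.42. Of 9 measured oligosaccharyltransferase genes RPN2 (1.04; all 20 probesets higher) alone was past 2-fold, with a median of 0.29. No gene of 21 in translocation and membrane insertion, nor of 8 p24 cargo proteins, passed 2-fold; the medians were 0.29 and 0.17.

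**Figure D5:**
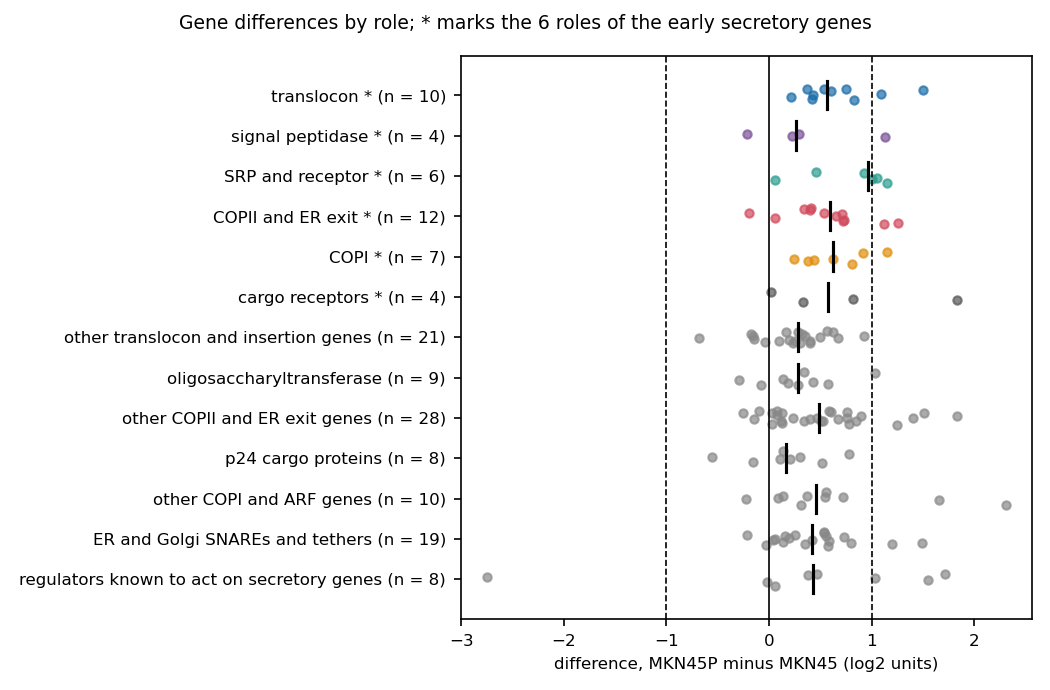
Differences of measured genes (x axis, MKN45P minus MKN45, log2 units) in the 6 roles of the early secretory genes (marked by an asterisk) and in 7 wider lists; points are genes, black bars list medians and dashed lines 2-fold. Every list median lies right of 0, from 0.17 for p24 proteins to 0.97 for signal recognition, and CREB3L1 at -2.75 is the only point past 2-fold lower.

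Regulators known to act on secretory genes went both ways. ATF6, the ER membrane sensor whose cleaved form activates such genes, had levels of 8.41 in MKN45P and 6.60 in MKN45, with a difference of 1.55 (0.64 to 2.12). Its relative ATF6B differed by 1.03 (0.78 to 1.39), higher at all 21 probesets. CREB3L2, an ER-bound factor known from mouse cartilage to activate COPII genes, differed by 1.72 (0.45 to 2.56), at 6.48 in MKN45P and 4.41 in MKN45. Its paralog CREB3L1 differed by -2.75 (-3.05 to -2.10), at 4.79 in MKN45P and 7.57 in MKN45, and was lower at all 16 probesets. XBP1, which the unfolded protein response activates by splicing its mRNA, was bright on both arrays, at 9.66 in MKN45P and 9.30 in MKN45. Its difference was 0.47 (-0.08 to 0.53), and 63.6% of its 11 probesets were higher in MKN45P. CREB3L4 differed by 0.38, CREB3L3 by 0.06 and CREB3 by -0.02. These levels are of mRNA, and neither cleavage of these factors nor splicing of XBP1 was read here; their part in the members' differences was not tested.

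Some member values are uncertain because near-identical copies can bind the same probes. The RefSeq table names pseudogenes after 13 of the 48 members, among them SEC22B with 3, SRP72 and SSR1 with 2 each and MCFD2 with 1 of the genes past 2-fold. SRP14 had 5 and SAR1A 4. SAR1A and SAR1B are also alike in sequence, and probes of one may read the other. The names of SRPR and COPG are those of the array's annotation.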

How the data were processed

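RNA of 1 MKN45P and 1 MKN45 culture was hybridised to an exon array after reduction of ribosomal RNA and biotin labelling, per the labels' protocols. The deposited values are log2 signal, 1 per probeset and array; the scale was read from their range, 1.42 to 13.45 in MKN45P and 1.42 to 13.48 in MKN45. Partek and hg18 are named, per the submitters' processing notes. How background, probe summary and normalization were handled is not given in the sources used here. The 2 arrays had close but unequal distributions and were used as deposited.

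Gene symbols came from GEO's platform annotation: of 877986 probesets, 286871 had 1 symbol and were used, 3137 had several, none of them a member, and 587978 were unnamed. Gene differences, the filters and the counts were taken on all genes and are given for the members; a count is by size, with no test. RefSeq tables (GRCh38.p14) gave current names, gene order, pseudogene names and promoters, whose minus-strand windows were checked to be written on the gene's strand. All 48 members are named, with full values for those past 1.5-fold and for the 2 highest and 2 lowest of each role. The members, lists, roles and motifs were chosen with earlier results of these data known. Promoters were to be printed for members with an ERSE or ERSE-II; none had one. The steps were run on simulated data in which probeset residuals were shuffled over the whole array. That checks the arithmetic of the steps and not how often real genes pass 2-fold between cultures. Python 3.11.15, numpy 2.4.6, pandas 2.3.3 and statsmodels 0.14.6 were used. Alternatives were quantile and loess scaling, other gene summaries and other filters.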

Additional observations from a re-analysis of the deposited data

How the results depend on the processing

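Under 7 other settings no measured member past 1.5-fold changed sign. Leaving out the filter or asking for at least 10 probesets changed only which genes were kept. A gene's own value was fixed in those settings. With quantile normalization 7 members were at least 2-fold higher and with loess 8, with medians of 0.53 and 0.57 over all members and 39 of 43 above 0 in each. Taking the difference between median levels gave 21 members at least 2-fold higher, with medians of 1.03 for COPII and 1.13 for COPI, while 9.62% of all measured genes then passed 2-fold upward. With at least 10 probesets per gene, 6 of 34 members passed, since MCFD2, SSR3, SEC22B and SEC11C have fewer, and SEC11A, at -0.22, was the only signal peptidase gene left. With only the probesets at levels from 2.77, 15 members were at least 2-fold higher, the COPI median was 0.95, and 1 member, SEC13, was at least 2-fold lower and so counted as 1 at least 1.5-fold lower. Of the 10 members past 2-fold, SRP54 and SRP72 passed it in all 7 settings, and MCFD2, SEC11C, SEC22B and SSR3 in all 6 that gave them a value. COPB2 and SAR1B passed in 6 of 7, SSR1 in 5 and SRPR in 4. These counts include the settings where the value was fixed, in which a pass was certain in advance. SRPR was below 2-fold with quantile normalization (0.93), with loess (0.88) and with the difference between median levels (0.99). Of 292 gene values under these settings, the fixed ones included, 277 moved by less than the spread between probesets or not at all. The other 15 moved by more: SEC11C and SEC13 over the brighter probesets, and the others with the difference between median levels. The cause was not tested. No paired analysis was possible because each line has 1 array. With 1 array per line no sample could be left out, and signal near the background limits what dim genes can show.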
